A study of Mus musculus with 45 samples.

Results

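Mouse neuroepithelial organoids were followed from day 2 of their growth, just before retinoic acid (RA) was given, to 78 h later in its presence, and every gene of the count table was compared between these ends of the RA course. The comparison rests on 6 of the 45 RNA-seq libraries of the series, 3 of day 2 and 3 of RA 78 h. The organoids grew from R1, an established line of wild-type (WT) mouse embryonic stem (ES) cells, seeded in Matrigel and kept in N2B27, a serum-free medium in which ES cells turn towards the neural lineage. Day 2 organoids had received N2B27 alone. RA 78 h organoids had received N2B27+RA from day 2 onward, with all-trans RA at 250 nM in the design text (the protocol label gives the same figure in µM). The same age without RA, untreated 78 h (3 libraries, N2B27 alone), is set beside the result, since the comparison with day 2 spans both the passing of time and the presence of RA. The other 6 RA time points, at 8, 18, 30, 42, 54 and 66 h with 3 libraries each, trace the way between the ends. All cells come from 1 line, each library holds the pooled cells of many organoids, and the study's methods call the replicates biological.

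RA is a small lipid made from vitamin A that enters cells and binds nuclear receptors, the RARs, which sit on DNA together with RXRs and switch target genes on. In the embryo it comes from the flank of the closing neural tube, where it is known for turning on Hox genes, for setting the identity of the hindbrain and cervical spinal cord, and for moving progenitors towards neurogenesis. Cells limit the signal through CYP26 enzymes, which break RA down and are themselves RA targets. Genes under such a signal can rise at once and stay, rise and return, or change only late. The course from day 2 to 78 h shows which genes did which in the presence of RA, over a span in which time passed as well.

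Levels are CPM, the reads of a gene scaled to a common library total, after TMM scaling over all libraries. Of 54532 genes in the table, 16892 had enough reads in the 6 libraries to be tested, with 21896134 to 26273480 counts per day 2 library and 27862239 to 33546744 per RA 78 h library. The first principal component separated the 2 groups and held 96.1% of the variance over these libraries. Day 2 replicates 1 and 2 carry earlier library numbers than day 2 replicate 3 and the RA 78 h libraries. All RA 8, 18, 42 and 54 h libraries also carry earlier numbers, and all RA 66 h and untreated 78 h libraries later ones. RA 30 h is split, with an earlier number for replicate 1 and later ones for replicates 2 and 3. In the course, a change between 8 or 18 h and 78 h therefore cannot be told apart from a difference between these library sets. A change between 18 h and 30 h crosses these sets in part. What the numbers stand for is not stated. Of 4 Y chromosome genes looked at, Ddx3y, Eif2s3y and Uty were lower in every 78 h library than in any day 2 library, and Kdm5d, which was low throughout, was not. Ddx3y lay between 109.6 and 118.7 CPM at day 2, between 40.1 and 52.5 CPM at RA 78 h and between 39.5 and 49.3 CPM at untreated 78 h. Among the libraries of the course, RA 8 h replicate 3 stood apart, with 0.0781% of its counts on mitochondrial genes against 0.00165% to 0.00347% in the other 44 libraries, and RA 30 h replicate 2 differed from its group in several genes named further on. Because the strand setting of the counting is not stated, a gene that overlaps another on the opposite strand may hold some of its reads. Among the genes that follow, this holds for Enpp2, Hoxa5, Hoxd3, Igf2, Krt8, Meis1, Nr2f1, Otx2, Pax6, Rarb, Shh, Zic1 and others. In bulk RNA, fewer cells of a type and less RNA per cell cannot be told apart.

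At RA 78 h, 3867 of 16892 tested genes (22.9%) were higher than at day 2 and 2443 (14.5%) were lower, called where the log2 fold change lay beyond 1 in either direction with an adjusted p under 0.01 (edgeR quasi-likelihood test, Benjamini-Hochberg adjustment). These percentages are the background for the gene lists that follow, as is the median log2 fold change of all tested genes, 0.04. For counts of list members between RA 78 h and untreated 78 h, the background is 7.66% of tested genes higher and 4.03% lower with RA. The 3 libraries of each group did not overlap for 80.6% of tested genes. The change began early. In a single fit over the 24 libraries of the RA course, 3786 genes were higher at 78 h than at day 2, and 1757 of them (46.4%) had already been called in that direction by 18 h and 2684 (70.9%) by 30 h. The 2596 lower genes came later, with 710 (27.3%) called by 18 h and 1581 (60.9%) by 30 h. Without RA 8 h replicate 3 the shares by 18 h were 46.3% and 28%, and without RA 30 h replicate 2 the shares by 30 h were 69.5% and 62.4%. Of the 18670 genes tested in this fit, 4.27% were higher than at day 2 after 8 h, 12.7% after 18 h, 17.8% after 30 h, 18.0% after 42 h, 18.9% after 54 h, 19.3% after 66 h and 20.3% after 78 h. The lower genes made up 2.38%, 4.57%, 10.4%, 11.3%, 13.7%, 12.8% and 13.9% at these times. Only 207 of the higher and 197 of the lower genes were first called at 78 h itself. All time points were compared with the same 3 day 2 libraries, so their counts are a description and not independent of each other.

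**Figure D1:**
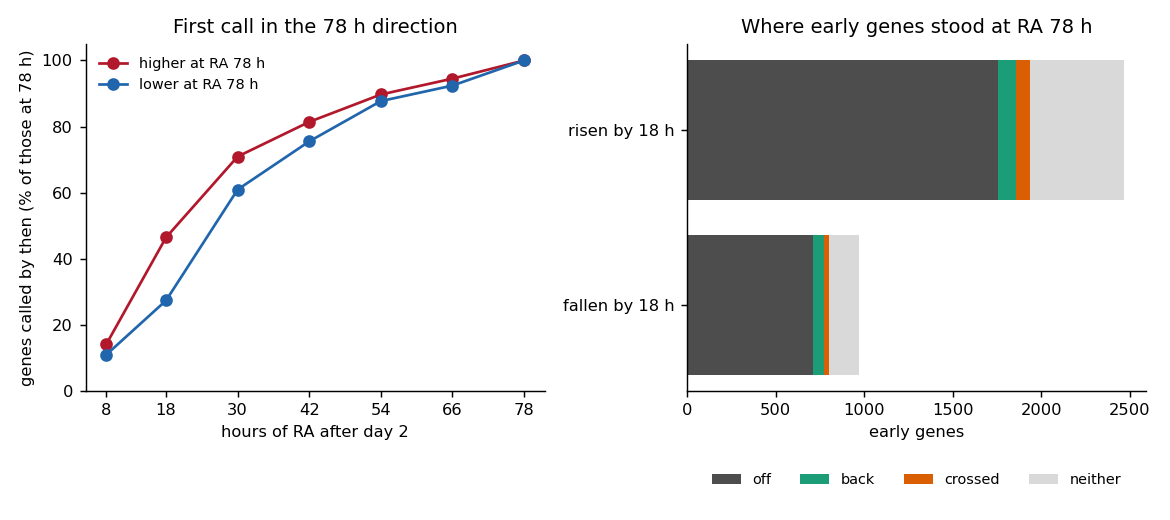
Left, share of the genes called at RA 78 h against day 2 that had been called in the same direction by each earlier time (x axis, hours of RA after day 2; y axis, percent), reaching 70.9% of higher and 60.9% of lower genes by 30 h. Right, number of early genes (called at RA 8 h or 18 h) that at 78 h were off, back, crossed or neither, as defined in the text; most of both directions were off.

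The 10 largest rises, among protein-coding genes with a mean of at least 1 CPM and no overlap between groups, ranked by fitted log2 fold change, began with 3 transcription factors. Dbx1, which marks interneuron progenitors at the middle of the dorsoventral axis, had no read in any day 2 library and 37.4, 44.7 and 64.8 CPM at RA 78 h, at least 369-fold above the level of 3 counts per library. Nhlh2, a factor of newborn neurons, was likewise at 0 at day 2 and reached 24.6, 21.9 and 23.7 CPM, at least 176-fold higher. Hoxd3 went from 0 to 20.2, 19.4 and 22.03 CPM, at least 155-fold higher (Hoxd3 overlaps the opposite-strand transcripts Haglr and Hoxd3os1). The remaining rises were Vtn, Serpinb9e, Tfap2b, Wnt1, Olr1, BC024139 and Nr2f1. Nr2f1, the orphan receptor COUP-TFI, went from 0.0414, 0.0999 and 0.0415 CPM to 67.3, 76.7 and 96.7 CPM. Among the 10 largest falls were Ms4a14, 9430069I07Rik, Grm6, Slc26a5, Cyp2j13, Cass4, Ccm2l, Kcnj3 and Crocc2. Kcnj3, a potassium channel gene, stood at 25.3, 26.2 and 27.4 CPM at day 2 and 1.04, 0.375 and 0.105 CPM at RA 78 h, while untreated 78 h organoids held 36.3, 37.1 and 32.4 CPM, and the 2 ends differed (RA against untreated 78 h, log2 fold change -6.01 ± 0.28, adjusted p = 2.8e-08).

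The 51 gene lists used here hold 821 different genes, of which 762 could be tested, 264 were higher, 105 were lower and 393 were not called in either direction. The plot of list members called in each direction sets these counts against the background, list by list. Where a median log2 fold change is given for a list, members with no read at day 2 enter at their fitted value, and putting them at their lower bound left each printed median as it is.

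**Figure D2:**
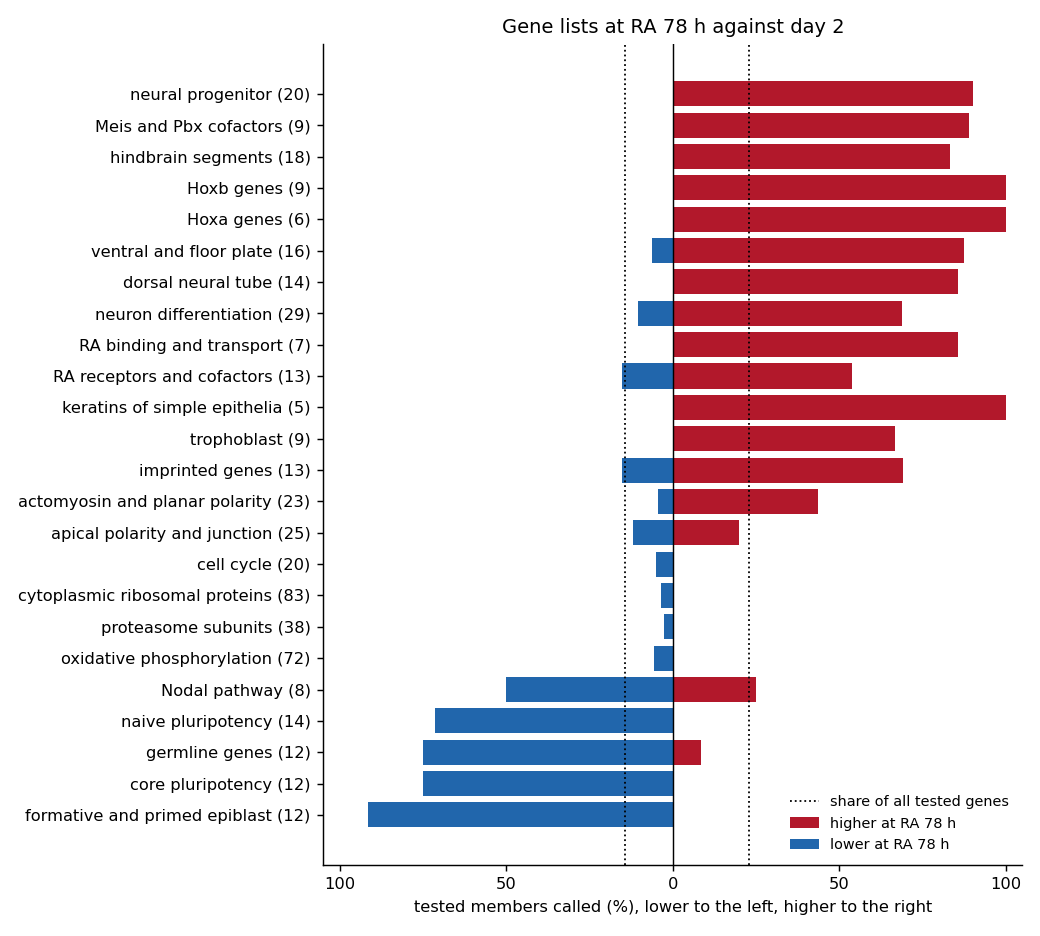
Share of the tested members of 24 gene lists (number tested in brackets) called higher (red, to the right) or lower (blue, to the left) at RA 78 h than at day 2, in percent. Dotted lines mark the share of all tested genes called higher (22.9%) and lower (14.5%). Neural progenitor, Hox, cofactor and keratin lists lie far to the right, pluripotency and germline lists to the left, and cell cycle, ribosomal, proteasome and respiratory chain lists near 0.

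Genes of pluripotency and of the epiblast were lower at RA 78 h. Pou5f1 (Oct4), the factor that defines pluripotent cells, stood at 968, 915 and 1070.0 CPM at day 2 and 122, 99.2 and 63.3 CPM at RA 78 h (log2 fold change -3.38 ± 0.18, adjusted p = 3.3e-09). Every RA 78 h library was below every day 2 library, but the lowest point of the course was earlier, with 44.7 ± 14.7 CPM (SD, n = 3) at 54 h. Of the 12 core pluripotency genes, 9 fell and 0 rose, with a median log2 fold change of -1.49. The 3 not called were Sox2, Nanog and Lin28b. Sox2, which neural progenitors share with pluripotent cells, was at 395, 413 and 409 CPM at day 2 and 257, 228 and 219 CPM at RA 78 h (log2 fold change -0.79, 95% interval -0.92 to -0.66). Nanog was at 159, 151 and 141 CPM at day 2 and 131, 110.5 and 75.3 CPM at RA 78 h (log2 fold change -0.51, 95% interval -0.82 to -0.20). For both genes the groups did not overlap, while their means lay less than 2-fold apart.

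The formative and primed epiblast list, genes of the state between naive stem cells and the germ layers, had the lowest median of the 51 lists, with 11 of 12 measured members lower and a median log2 fold change of -3.50. Sall2, at 178, 193 and 187 CPM at day 2 and 196, 215 and 239 CPM at RA 78 h, was the exception (log2 fold change 0.22, 95% interval 0.06 to 0.38). Otx2, a factor of epiblast and forebrain, went from 248, 255 and 229.9 CPM to 11.2, 7.95 and 1.93 CPM (log2 fold change -5.09 ± 0.32, adjusted p = 1.8e-08). Dnmt3b, a de novo DNA methyltransferase, went from 1880.1, 1893 and 1896 CPM to 126, 117 and 86.7 CPM (log2 fold change -4.10 ± 0.11, adjusted p = 1.5e-11). Fgf5, a classical epiblast marker, was at 39.1, 41.0 and 38.5 CPM at day 2 and 2.20, 1.81 and 0.455 CPM at RA 78 h (log2 fold change -4.69 ± 0.25, adjusted p = 3.5e-09). For these 3 genes the day 2 and RA 78 h libraries were far apart, and untreated 78 h libraries lay between them, at 65.5, 66.3 and 63.2 CPM for Otx2, 715, 857 and 781 CPM for Dnmt3b and 18.1, 23.3 and 19.8 CPM for Fgf5. Against untreated 78 h, 8 of the 12 members were lower with RA. The naive pluripotency list held 10 falls among 14 members (median -1.82), and without RA all 14 fell. Klf4 and Tbx3, naive factors not called under RA, were the 2 members that were higher with RA than without. Klf4 held 18.5, 19.5 and 21.7 CPM at day 2 and 16.6, 15.1 and 11.5 CPM at RA 78 h (log2 fold change -0.47, 95% interval -0.74 to -0.19) and 9.17, 5.74 and 4.91 CPM without RA.

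Genes of the RA pathway rose, some for good and some for a time. Rarb, which encodes an RA receptor and is a direct RA target in many cells, rose at once and stayed up. Its day 2 libraries held 0.580, 0.200 and 0.291 CPM and its RA 78 h libraries 29.7, 31.6 and 39.3 CPM (log2 fold change 6.50 ± 0.22, adjusted p = 9.8e-11), after a mean of 40.5 ± 9.16 CPM (SD, n = 3) at 8 h and 56.9 ± 3.30 CPM at 42 h. Cyp26a1, the main RA-degrading enzyme of the early embryo, rose from 2.20, 1.90 and 1.74 CPM at day 2 to 257, 288 and 284 CPM at 18 h and then came down to 5.82, 5.66 and 4.06 CPM at 78 h. This end level was still above day 2 (log2 fold change 1.41 ± 0.20, adjusted p = 2.9e-05) but not above untreated 78 h, which held 6.73, 6.78 and 9.37 CPM (RA against untreated, log2 fold change -0.54, 95% interval -0.91 to -0.16). Cyp26b1, its relative, peaked at 8 h with 22.5 ± 2.72 CPM and ended at 4.29, 5.84 and 2.28 CPM under RA, while untreated organoids ended at 102, 87.1 and 141 CPM (RA against untreated, log2 fold change -4.71 ± 0.24, adjusted p = 6.3e-08). Dhrs3, which returns retinal to retinol, followed Cyp26a1, with 44.5 ± 3.35 CPM at 18 h and 3.68, 2.66 and 5.01 CPM at 78 h against 0.829, 0.4996 and 0.664 CPM at day 2.

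The promoters of Rarb and Cyp26a1 are shown because both genes are textbook RA targets with different courses, a lasting rise and one that had mostly passed by 78 h. The search was for a pair of receptor binding motifs spaced by 5 bases (the DR5 arrangement), spelled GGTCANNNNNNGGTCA, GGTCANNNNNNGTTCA, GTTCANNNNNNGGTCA or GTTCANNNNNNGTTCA, on both strands of the window from 250 bases before to 50 bases after each gene start in RefSeq (GRCm38.p6). Of 32851 windows, 81 (0.247%) held a match, and of the 762 windows of 599 listed genes with one, 3 (0.394%) did. The other one is that of Bmp6, a BMP ligand. The 2 shares rest on so few windows that no difference is read from them. The 120 bases before each start follow, 5′ to 3′ on the gene's strand, with the match in capitals.
Rarb: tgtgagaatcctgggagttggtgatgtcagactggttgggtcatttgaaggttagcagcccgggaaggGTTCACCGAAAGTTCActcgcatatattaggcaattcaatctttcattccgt
Cyp26a1: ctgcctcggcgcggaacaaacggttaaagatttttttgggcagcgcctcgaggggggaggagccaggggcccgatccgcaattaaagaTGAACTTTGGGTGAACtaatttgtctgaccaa
Bmp6: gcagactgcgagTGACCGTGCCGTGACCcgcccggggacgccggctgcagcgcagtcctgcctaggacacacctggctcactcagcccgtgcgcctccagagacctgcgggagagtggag
The windows lie at chr14:16575477-16575596 on the minus strand for Rarb, chr19:37697688-37697807 on the plus strand for Cyp26a1 and chr13:38345596-38345715 on the plus strand for Bmp6. The match ran from 52 to 37 bases before the start in Rarb, where it reads along the gene, and from 32 to 17 bases in Cyp26a1 and 108 to 93 bases in Bmp6, where it reads on the opposite strand. Bmp6 rose from 0.870, 0.600 and 0.913 CPM to 6.55, 5.43 and 5.64 CPM (log2 fold change 2.86 ± 0.21, adjusted p = 7.0e-08), with means of 1.25, 2.09 and 5.50 CPM at 8, 18 and 54 h. A match of letters is a description, and says nothing of binding.

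Stra8, named for its stimulation by RA and known as the gate to meiosis, had a high transient. It stood at 3.98, 4.15 and 3.82 CPM at day 2, at 515, 509.8 and 527 CPM at RA 18 h and at 59.9, 54.7 and 70.8 CPM at RA 78 h (log2 fold change 3.96 ± 0.12, adjusted p = 2.8e-11). Untreated organoids moved the other way and ended at 1.87, 1.46 and 0.892 CPM, below day 2 (log2 fold change -1.52 ± 0.23, adjusted p = 1.9e-05). Of the receptors, Rxra rose from 17.5, 16.1 and 19.4 CPM to 125, 137 and 154 CPM. Rarg, the receptor of the early embryo, fell from 244, 236 and 263 CPM to 45.4, 40.4 and 29.1 CPM (log2 fold change -2.69 ± 0.12, adjusted p = 9.7e-10), and Rxrg fell from 8.45, 11.2 and 11.04 CPM to 0.782, 0.956 and 0.350 CPM. Rara was at 67.5, 66.7 and 75.2 CPM at day 2 and 58.6, 62.1 and 64.1 CPM at RA 78 h (log2 fold change -0.18, 95% interval -0.33 to -0.03). Nrip1, a corepressor that RA induces, went from 11.1, 11.7 and 10.8 CPM to 156 ± 18.9 CPM at 8 h and held 97.3, 101 and 109.6 CPM at 78 h. The binding proteins rose as well, with Crabp1 from 11.8, 12.1 and 16.4 CPM to 483, 477 and 387 CPM and Crabp2 from 32.5, 33.6 and 33.2 CPM to 493, 509 and 589.5 CPM. Across the 3 RA lists, 4 of 6 synthesis and breakdown genes, 6 of 7 binding and transport genes and 7 of 13 receptors and cofactors were higher, and 2, Rarg and Rxrg, were lower. Aldh1a1, which makes RA, was among the risen genes, at 0, 0.04996 and 0.0415 CPM at day 2 and 5.94, 4.91 and 5.64 CPM at RA 78 h, with 0.216, 0.297 and 0.167 CPM without RA. Aldh1a2, the main RA-making enzyme of the embryo, was at 3.81, 3.25 and 4.07 CPM at day 2 and 4.32, 3.58 and 4.06 CPM at RA 78 h (log2 fold change 0.10, 95% interval -0.26 to 0.46) and 0.432, 0.357 and 0.920 CPM without RA. Tshz1, a zinc finger factor, climbed from 1.16 CPM at day 2 to 202 ± 21.99 CPM at 42 h and ended at 67.3, 63.9 and 92.4 CPM, above the 16.3, 14.4 and 17.6 CPM of untreated organoids.

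Hox genes, which give segments of the hindbrain and spinal cord their identity, rose in all 4 clusters. All 6 measured Hoxa genes and all 9 Hoxb genes were higher, as were 4 of 5 Hoxc and 3 of 4 Hoxd genes, and the only ones lower were Hoxc13 and Hoxd13 at the far 5′ ends of their clusters. The others listed, 5 Hoxa, 1 Hoxb, 4 Hoxc and 5 Hoxd genes, had too few reads to be tested. Without RA, 6 Hoxa, 8 Hoxb, 5 Hoxc and 1 Hoxd genes rose from day 2, and 1 Hoxc and 1 Hoxd gene fell. Against untreated 78 h, 4 Hoxa, 6 Hoxb, 2 Hoxc and 3 Hoxd genes were higher with RA, and 1 Hoxb gene was lower. Hoxb4, a gene of the hindbrain-spinal cord border, held 0.456, 0.300 and 0.872 CPM at day 2 and 46.2, 47.6 and 57.0 CPM at RA 78 h (log2 fold change 6.48 ± 0.20, adjusted p = 3.3e-11), against 2.84, 2.56 and 2.23 CPM at untreated 78 h. Hoxb8, of more posterior spinal cord, held 0.497, 0.600 and 0.664 CPM at day 2 and 36.7, 27.7 and 45.5 CPM at RA 78 h (log2 fold change 5.95 ± 0.24, adjusted p = 3.4e-10) and 6.01, 6.36 and 6.66 CPM without RA. Hoxb9 held 1.33, 1.30 and 1.12 CPM at day 2 and 27.3, 14.5 and 16.0 CPM at RA 78 h, and untreated libraries overlapped with these, at 16.0, 16.9 and 20.1 CPM (RA against untreated, log2 fold change 0.15, 95% interval -0.28 to 0.57). In these Hoxb genes the distance between RA and untreated organoids was therefore wide at Hoxb4 and Hoxb8 and not detected at Hoxb9.

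Some anterior Hox genes had been much higher earlier in the course. Hoxb1 went from 1.99, 2.298 and 2.24 CPM to 165, 172 and 171 CPM at 18 h and 12.5, 6.86 and 6.86 CPM at 78 h (log2 fold change 2.01 ± 0.25, adjusted p = 8.5e-06). Untreated organoids then held 57.1, 62.1 and 57.5 CPM (RA against untreated, log2 fold change -2.72 ± 0.17, adjusted p = 3.1e-07). Hoxa5 likewise passed its top, 44.3 ± 0.770 CPM (SD, n = 3) at 18 h, and ended at 9.82, 8.77 and 11.4 CPM from 0.332, 0.400 and 0.0415 CPM at day 2. Both genes stayed above day 2 after the fall from their peaks. Hoxb4, in contrast, stood at 60.2 CPM at 18 h and 40.04 CPM at 54 h before its end level.

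Among regulators of hindbrain segments, 15 of 18 rose, 7 of them Hox genes, and 3 were not called (median 3.19). Without RA 16 members rose from day 2, and at 78 h 4 were higher and 6 lower with RA than without. Egr2 (Krox20), the factor of hindbrain segments 3 and 5, stayed low under RA, at 0.290, 0.450 and 0.166 CPM at day 2 and 0.637, 0.785 and 0.315 CPM at RA 78 h (log2 fold change 0.97, 95% interval -0.06 to 2.00). It reached 25.7, 29.0 and 54.2 CPM without RA (RA against untreated, log2 fold change -5.93 ± 0.36, adjusted p = 2.2e-07). Of the Meis and Pbx cofactors, which bind DNA together with Hox proteins, 8 of 9 rose. Without RA 6 rose, and 0 were called between RA and untreated 78 h. Meis1 went from 1.12, 1.10 and 0.789 CPM to 103, 125 and 130.5 CPM (log2 fold change 6.90 ± 0.15, adjusted p = 3.1e-12), and held 66.8, 65.0 and 70.6 CPM without RA (RA against untreated, log2 fold change 0.84, 95% interval 0.66 to 1.02).

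Neural progenitor genes rose in 18 of 20 members, with a median log2 fold change of 4.04. Sox1, the earliest specific marker of neuroectoderm, held 2.53, 1.75 and 2.03 CPM at day 2 and 93.8, 96.4 and 95.9 CPM at RA 78 h (log2 fold change 5.49 ± 0.10, adjusted p = 1.2e-12), and untreated organoids ended at 149.9, 175 and 183 CPM. Under RA the highest mean of Sox1 was 204 ± 84.9 CPM at 30 h, with a wide spread in a group that holds RA 30 h replicate 2. Pax6, a factor of neural progenitors, held 18.4, 18.6 and 15.8 CPM at day 2 and 103, 115 and 137 CPM at RA 78 h (log2 fold change 2.75 ± 0.11, adjusted p = 2.7e-10). Nes, the intermediate filament nestin, held 28.2, 29.5 and 30.1 CPM at day 2 and 371, 403 and 461 CPM at RA 78 h (log2 fold change 3.81 ± 0.09, adjusted p = 5.0e-12). For all 3 every RA 78 h library was above every day 2 library. Without RA the same number of list members, 18, rose from day 2, and 4 were higher and 1 lower with RA than without it at 78 h. Vim, Dach1 and Pou3f3 were among the higher ones, and the lower one was Hes3. Pou3f3, a POU factor of the neural tube, held 0.539, 0.450 and 0.872 CPM at day 2 and 134, 155 and 171 CPM at RA 78 h, and 22.2, 19.7 and 23.4 CPM at untreated 78 h. The untreated libraries of Pou3f3 lay between the other groups.

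Genes of the ventral neural tube and floor plate, the strip that secretes Sonic hedgehog, rose in 14 of 16 measured members under RA (median 2.86), with 1 lower, Foxj1, a factor of motile cilia. Without RA, where 11 members could be tested, 4 rose and 2 fell, and the difference between RA and untreated 78 h passed the thresholds in 12, all higher with RA. Foxa2, the floor plate factor, held 0.456, 0.650 and 1.04 CPM at day 2 and 10.3, 11.2 and 13.1 CPM at RA 78 h (log2 fold change 3.99 ± 0.23, adjusted p = 7.1e-09) and 0.468, 0.416 and 0.558 CPM without RA. Shh, the ligand itself, held 0, 0.04996 and 0.0830 CPM at day 2 and 6.81, 8.67 and 7.60 CPM at RA 78 h, and 0.108, 0.119 and 0.0836 CPM without RA. Nkx6-1, of ventral progenitors, held 0.0829, 0.0999 and 0.125 CPM at day 2 and 12.7, 16.7 and 20.5 CPM at RA 78 h and 6.29, 6.66 and 5.60 CPM without RA. Olig2, of motor neuron progenitors, held 0.0414, 0 and 0.0415 CPM at day 2 and 4.23, 5.19 and 8.96 CPM at RA 78 h, and 0.0719, 0.238 and 0.112 CPM without RA. The RA 78 h libraries of these 4 genes lay above all libraries of day 2 and of untreated 78 h. Of the Hedgehog pathway 6 of 11 genes rose and 1 fell, and the classical targets Gli1 and Ptch1 were not called. Gli1 was at 49.6, 44.9 and 45.3 CPM at day 2 and 41.9, 44.6 and 49.7 CPM at RA 78 h (log2 fold change -0.04, 95% interval -0.21 to 0.13). Ptch1 was at 259, 266 and 249.6 CPM at day 2 and 256, 293 and 309 CPM at RA 78 h (log2 fold change 0.15, 95% interval 0.00 to 0.30). Both lay near their start under RA. Untreated organoids held 9.75, 8.47 and 8.20 CPM for Gli1 and 122, 126 and 136 CPM for Ptch1, and both differed from RA 78 h (log2 fold change 2.39 ± 0.10, adjusted p = 8.2e-09, and 1.17 ± 0.07, adjusted p = 2.2e-07). The co-receptor gene Boc rose from 1.70, 1.15 and 0.872 CPM to 85.7, 94.6 and 99.9 CPM.

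Dorsal neural tube regulators rose together with the ventral genes, in 12 of 14 members with a median log2 fold change of 4.75. Pax3, of dorsal progenitors, held 0.124, 0.0999 and 0.0415 CPM at day 2 and 50.6, 52.3 and 45.9 CPM at RA 78 h and 20.4, 20.9 and 25.5 CPM without RA. Zic1, a zinc finger factor of the dorsal tube, held 0.746, 0.550 and 1.04 CPM at day 2 and 95.3, 82.8 and 86.5 CPM at RA 78 h (log2 fold change 6.79 ± 0.13, adjusted p = 2.0e-12), against 13.7, 13.2 and 10.9 CPM without RA. Wnt1, of the roof plate, had no read at day 2 and 7.27, 7.92 and 6.69 CPM at RA 78 h, at least 54.9-fold higher. Msx1, a BMP-responsive roof plate gene, was 1 of 28 genes that were higher at RA 78 h and lower at untreated 78 h than at day 2. It held 4.43, 3.65 and 3.82 CPM at day 2, 20.1, 19.5 and 20.2 CPM with RA and 0.863, 1.28 and 1.03 CPM without (RA against untreated, log2 fold change 4.24 ± 0.13, adjusted p = 1.5e-09). The day 2 libraries of Msx1 lay between those of the other groups. Of the 14 dorsal genes, 9 were higher and 1, Olig3, was lower with RA than without.

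Neuron differentiation genes rose in 20 of 29 measured members and fell in 3 (median 1.90), and 17 were higher and 1 lower with RA than in untreated 78 h. Dcx, doublecortin of migrating young neurons, held 1.20, 0.749 and 0.540 CPM at day 2 and 40.5, 47.0 and 54.8 CPM at RA 78 h (log2 fold change 5.82 ± 0.20, adjusted p = 8.4e-11) and 5.79, 4.97 and 3.93 CPM without RA. Nefm, a neurofilament chain, held 3.40, 2.85 and 3.20 CPM at day 2 and 113, 112 and 119.8 CPM at RA 78 h (log2 fold change 5.18 ± 0.09, adjusted p = 7.3e-13) and 22.7, 25.7 and 27.1 CPM without RA. Neurog1, which commits progenitors to a neuronal fate, held 0, 0.0999 and 0.166 CPM at day 2 and 12.3, 15.6 and 18.98 CPM at RA 78 h. The rise of Dcx was late, with means of 1.26, 3.77 and 17.7 CPM at 42, 54 and 66 h. Tubb3, the neuronal tubulin, rose less, from 58.9, 51.4 and 60.2 CPM to 132, 139.6 and 146 CPM (log2 fold change 1.29 ± 0.07, adjusted p = 6.3e-09). The 3 members that fell were Neurod1, from 36.2, 39.7 and 38.9 CPM to 5.50, 5.15 and 4.17 CPM, Ina, from 140.5, 133 and 140.4 CPM to 58.7, 58.0 and 54.3 CPM, and Stmn2. Stmn2, which is also expressed in early embryonic cells, went from 140.2, 135 and 142 CPM to 51.0, 44.2 and 35.0 CPM (log2 fold change -1.68 ± 0.10, adjusted p = 1.4e-08), while untreated organoids held 157, 164 and 169.5 CPM.

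**Figure D3:**
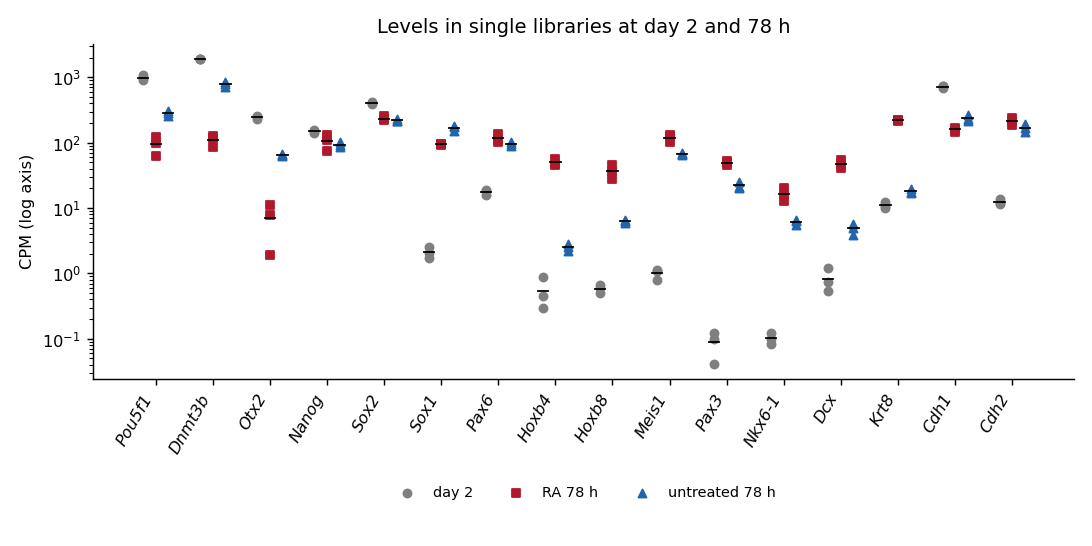
Level of 16 genes in each library of day 2 (grey circles), RA 78 h (red squares) and untreated 78 h (blue triangles), in CPM on a log axis, with short lines at the means of 3 libraries. Pou5f1, Dnmt3b and Otx2 lie lowest in the RA 78 h libraries, the means of Nanog and Sox2 stay within 2-fold of day 2, and Hoxb4, Dcx and Krt8 are highest in the RA 78 h libraries.

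Signalling genes known from the epiblast were lower at RA 78 h. Fgf4, the FGF ligand of pluripotent cells, went from 287, 289 and 266 CPM to 31.4, 24.9 and 15.5 CPM (log2 fold change -3.54 ± 0.17, adjusted p = 1.7e-09). Etv5, a transcription factor downstream of FGF, went from 446, 439.6 and 442 CPM to 89.0, 78.9 and 51.9 CPM (log2 fold change -2.59 ± 0.14, adjusted p = 4.8e-09). Nodal, the TGF-beta ligand of the epiblast, went from 116, 111 and 114 CPM to 16.5, 12.7 and 9.38 CPM (log2 fold change -3.14 ± 0.14, adjusted p = 6.6e-10). All 3 were lower in every RA 78 h library than in any day 2 library. In the FGF list 8 of 21 members fell and 6 rose, among them the receptor Fgfr3, from 1.20, 1.30 and 1.83 CPM to 46.3, 57.5 and 71.5 CPM. In the Nodal list 4 of 8 fell and 2 rose. Lefty1, a Nodal antagonist, passed through 55.0 ± 5.76 CPM at 30 h and ended at 8.57, 4.91 and 2.66 CPM, from 3.07, 2.65 and 2.86 CPM at day 2 (log2 fold change 0.92, 95% interval 0.20 to 1.64). Without RA 78 h replicate 3 Lefty1 was called higher (log2 fold change 1.23).

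Wnt genes rose in 18 of 25 measured members and fell in 4 (median 1.98). Wnt3a, a dorsal midline ligand, went from 0.290, 0.400 and 0.415 CPM to 7.47, 7.51 and 6.58 CPM and Sfrp2, a secreted antagonist, from 17.5, 16.7 and 17.3 CPM to 175, 180.3 and 150.1 CPM. Lef1, a Wnt effector that also belongs to the epiblast, fell from 141, 141 and 139 CPM to 16.8, 15.4 and 6.02 CPM. Sfrp5, another antagonist, rose and receded, from 0.249, 0.2498 and 0.664 CPM at day 2 to 61.1, 87.0 and 58.0 CPM at 30 h and 2.93, 1.91 and 2.77 CPM at 78 h. The highest of its 30 h values was that of RA 30 h replicate 2, the library that differed from its group. BMP ligands, antagonists and Id genes rose in 10 of 16 members, and 6 were not called. Id3, an inhibitor of basic helix-loop-helix factors that BMP induces, ended at 148, 143 and 173 CPM from 39.8, 40.2 and 44.5 CPM (log2 fold change 1.90 ± 0.08, adjusted p = 6.7e-10), against 23.8, 26.8 and 29.4 CPM without RA. At 18 h its mean was 17.9 ± 3.20 CPM, a fall that was not called. Fst (follistatin), which binds activin and BMP ligands, was at 16.5, 18.0 and 16.4 CPM at day 2 and 13.6, 10.9 and 6.30 CPM at RA 78 h (log2 fold change -0.72, 95% interval -1.15 to -0.28) after a low of 1.80 ± 0.173 CPM at 18 h. Untreated organoids held 77.5, 84.6 and 80.3 CPM (RA against untreated, log2 fold change -2.95 ± 0.18, adjusted p = 2.1e-07). In the Notch list 7 of 15 rose and 8 were not called. The risen genes included Hes5, a Notch target of neural progenitors, from 0.124, 0.200 and 0.0830 CPM to 58.2, 64.7 and 76.2 CPM (log2 fold change 8.92 ± 0.21, adjusted p = 6.4e-12).

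Enpp2 encodes autotaxin, which makes the lipid signal lysophosphatidic acid (LPA) through which cells can activate the ROCK kinases, drivers of cortical contraction. Enpp2 fell from 47.8, 55.6 and 49.8 CPM to 3.39, 3.62 and 2.73 CPM (log2 fold change -3.97 ± 0.11, adjusted p = 1.6e-11). The low point was 0.326, 0.521 and 0.511 CPM at 30 h, after which the means were 0.756, 1.43, 2.56 and 3.25 CPM at 42, 54, 66 and 78 h, and the 78 h libraries remained below all day 2 libraries. Untreated organoids also ended below day 2, at 9.93, 13.4 and 10.01 CPM, and the RA level was lower than that (RA against untreated, log2 fold change -1.76 ± 0.16, adjusted p = 4.5e-06). Of the LPA receptors, Lpar3 rose from 0.207, 0.0999 and 0.291 CPM to 2.06, 1.77 and 2.38 CPM and Lpar2 from 23.3, 24.5 and 26.7 CPM to 46.8, 48.0 and 55.3 CPM. Lpar1 fell from 39.0, 41.7 and 42.8 CPM to 21.2, 20.2 and 18.9 CPM and Lpar4 from 41.8, 41.1 and 46.1 CPM to 24.5, 20.8 and 17.3 CPM. The calls of Lpar2 and Lpar4 were lost without RA 78 h replicate 3 (log2 fold change 0.92 and -0.93), and that of Lpar2 also without day 2 replicate 1 or 2 (0.94 and 0.97). Rock1 and Rock2 ended near their start after higher values at 8 h. Rock1 held 99.1, 94.1 and 125 CPM at day 2, 187, 221 and 207 CPM at 8 h and 142, 100.1 and 95.2 CPM at 78 h (log2 fold change 0.08, 95% interval -0.22 to 0.39). Rock2 held 144, 136 and 159 CPM at day 2, 270.3, 332 and 254 CPM at 8 h and 168, 143 and 140.2 CPM at 78 h (log2 fold change 0.04, 95% interval -0.13 to 0.21). At 8 h every library of both genes was above the day 2 libraries, and both intervals at 78 h lay within 2-fold of day 2.

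Cdh1 (E-cadherin) fell from 743, 737 and 689 CPM to 169, 164 and 149 CPM (log2 fold change -2.17 ± 0.06, adjusted p = 1.5e-11). Cdh2 (N-cadherin) rose from 11.9, 11.5 and 13.9 CPM to 185, 215 and 238 CPM (log2 fold change 4.09 ± 0.11, adjusted p = 1.4e-11). Epcam, an adhesion molecule of embryonic epithelia, fell from 289, 294 and 301 CPM to 81.4, 62.4 and 52.1 CPM, and Grhl2, a factor of epithelial identity, from 185, 185 and 169 CPM to 13.6, 11.7 and 9.14 CPM. Cdh1 and Cdh2 changed without RA too, to 215, 269 and 233 CPM and 148, 169 and 191 CPM, and neither was called between RA and untreated 78 h. The apical polarity and junction list held 5 of 25 members higher and 3 lower, near the shares over all tested genes (22.9% and 14.5%), and had a median log2 fold change of 0.28. Podxl, a sialomucin of the apical surface, dipped to 59.0, 50.7 and 11.4 CPM at 8 h and came back to 184, 191 and 185 CPM, against 235, 243 and 213 CPM at day 2 (log2 fold change -0.30, 95% interval -0.43 to -0.18). Of its 8 h values the lowest was that of the library that stood apart. In the actomyosin and planar polarity list 10 of 23 rose and 1 fell. Without RA 10 rose and 1 fell as well, and at 78 h 2 were higher and 1 lower with RA than without. Myh10, non-muscle myosin IIB, went from 206, 214 and 186 CPM to 656, 732 and 793 CPM (log2 fold change 1.85 ± 0.08, adjusted p = 3.7e-10). Fzd3, a Frizzled receptor of planar polarity, went from 13.1, 13.9 and 20.3 CPM to 388, 401 and 449 CPM (log2 fold change 4.70 ± 0.14, adjusted p = 2.6e-11).

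Keratins of simple epithelia, filament proteins known from trophoblast and other simple epithelia, rose in all 5 measured members. Krt8 held 10.2, 12.2 and 10.7 CPM at day 2 and 223, 213 and 222 CPM at RA 78 h (log2 fold change 4.32 ± 0.07, adjusted p = 8.1e-13). Krt18, its partner, held 14.2, 14.0 and 14.7 CPM at day 2 and 207, 201 and 212 CPM at RA 78 h (log2 fold change 3.86 ± 0.06, adjusted p = 7.3e-13). Krt7 held 1.95, 2.65 and 3.32 CPM at day 2 and 81.5, 83.8 and 92.1 CPM at RA 78 h and Krt19 held 3.32, 3.60 and 3.32 CPM at day 2 and 109, 108 and 101 CPM at RA 78 h. No RA 78 h library overlapped a day 2 library in any of the 4. Without RA 1 of 4 tested members rose, Krt8 was at 17.4, 19.7 and 17.1 CPM, and all 5 differed between RA and untreated 78 h. Krt8 rose through the course, with means of 22.02, 63.6, 106 and 157 CPM at 18, 42, 54 and 66 h. At 30 h the replicates read 18.9, 86.1 and 17.6 CPM, the second being the library that differed from its group.

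The trophoblast list rose in 6 of 9 measured members under RA, 2 of 7 tested members fell without RA, and 7 were higher with RA than without. Hand1, a factor of trophoblast and lateral mesoderm, held 0.166, 0.699 and 0.291 CPM at day 2 and 18.1, 16.5 and 15.2 CPM at RA 78 h (log2 fold change 5.48 ± 0.25, adjusted p = 9.5e-10). Gata3, of trophoblast and surface ectoderm, held 1.04, 0.999 and 0.913 CPM at day 2 and 15.6, 12.1 and 12.8 CPM at RA 78 h (log2 fold change 3.78 ± 0.17, adjusted p = 8.2e-10). The summed level of the whole list was 60.5 to 62.8 CPM at day 2, 209.6 to 218 CPM at RA 78 h and 27.6 to 30.1 CPM at untreated 78 h. Its more specific members were scarce, with Elf5 at 0.956, 0.887 and 0.735 CPM, Tpbpa at 0.463, 0.751 and 0.595 CPM and Prl3d1 at 0, 0.0683 and 0 CPM at RA 78 h. Krt7 is a member of the keratin list as well, and its rise, given there, is a large part of the rise of the summed level. The part of trophoblast or other cell types in the rise of the keratins was not tested.

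Markers of other cell types were mixed in most lists. Sox17, of endoderm and endothelium, rose from 0.207, 0.450 and 0.0415 CPM to 6.20, 7.03 and 5.04 CPM. Cdh5, VE-cadherin of endothelium, rose from 0.166, 0.0999 and 0.166 CPM to 24.8, 23.8 and 23.6 CPM (log2 fold change 7.31 ± 0.18, adjusted p = 8.2e-12), against 0.468, 1.01 and 0.809 CPM without RA. Kdr, another endothelial gene, did not share this rise, with 3.90, 3.65 and 2.95 CPM at day 2 and 2.87, 4.40 and 3.29 CPM at RA 78 h (log2 fold change 0.01, 95% interval -0.44 to 0.45). Tek, of endothelium as well, fell from 19.9, 20.7 and 21.5 CPM to 4.61, 3.92 and 2.49 CPM. Hba-a1 had no read in the 6 libraries, Ptprc stayed at or below 0.0829 CPM, and Ttr reached at most 0.175 CPM at RA 78 h. Neural crest markers rose in 6 of 12 members and 1, Foxd3, fell. Ednrb, an endothelin receptor of crest and neural progenitors, rose from 0.373, 0.899 and 0.166 CPM to 139, 162 and 180.4 CPM (log2 fold change 8.45 ± 0.22, adjusted p = 1.2e-11). Sox10, the defining crest factor, was at 0.497, 0.0999 and 0.291 CPM at day 2 and 1.01, 0.682 and 0.770 CPM at RA 78 h (log2 fold change 1.42, 95% interval 0.47 to 2.38). It was called higher without day 2 replicate 1 (log2 fold change 1.99). T (brachyury), of the primitive streak, fell from 9.28, 10.04 and 11.1 CPM to 0.956, 0.751 and 0.490 CPM (log2 fold change -3.76 ± 0.21, adjusted p = 4.7e-09). Of 6 measured glia genes 1 rose and 2 fell. The extraembryonic endoderm list held 4 rises, 1 fall (Apoe) and 4 members called in neither direction, the mesoderm list 3 rises and 2 falls of 6, the surface ectoderm list 2 rises and 1 fall of 5, the endothelium and blood list 2 rises and 2 falls of 6, and the fibroblast list 6 rises and 1 fall of 7. Single libraries decided counts of the surface ectoderm list, with 1 rise without day 2 replicate 1, day 2 replicate 2 or RA 78 h replicate 3 and 2 falls without day 2 replicate 1 or RA 78 h replicate 1. The endothelium and blood list held 1 rise without day 2 replicate 3. The fibroblast list, most of whose members rose, summed to 15.4 to 16.8 CPM at day 2 and 21.4 to 25.3 CPM at RA 78 h. Untreated 78 h libraries summed to 45.5 to 67.8 CPM, and 3 members were higher and 3 lower with RA than without.

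Imprinted genes, which are read from 1 parental copy and include growth regulators, rose in 9 of 13 members and fell in 2. H19, a long non-coding RNA, went from 4.60, 4.40 and 3.82 CPM to 529, 517 and 486 CPM (log2 fold change 6.90 ± 0.08, adjusted p = 7.2e-14). Its neighbour Igf2, a growth factor, went from 0.373, 0.350 and 0.0830 CPM to 42.3, 42.3 and 47.4 CPM (log2 fold change 7.36 ± 0.19, adjusted p = 1.3e-11). Cdkn1c, an inhibitor of cyclin-dependent kinases, went from 29.6, 28.9 and 31.1 CPM to 367, 341 and 389 CPM. These 3 were lower in untreated organoids, at 30.2, 24.7 and 26.8 CPM for H19, 3.34, 3.66 and 2.57 CPM for Igf2 and 59.95, 58.3 and 60.4 CPM for Cdkn1c. Peg10, a retrotransposon-derived gene, reached 2504, 2858 and 3019 CPM from 522, 535 and 509.9 CPM and stood at 491, 522 and 493 CPM without RA. Meg3, the maternally expressed RNA of another domain, went the other way, from 626, 654 and 579.7 CPM to 205, 206 and 197 CPM (log2 fold change -1.61 ± 0.05, adjusted p = 8.0e-11), with 847, 744 and 757 CPM without RA. Of 13 imprinted genes, 7 were higher and 2 lower with RA than without.

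Germline genes, most of which are kept silent in other tissues by DNA methylation, fell in 9 of 12 members with RA and in 9 of 12 without. Sycp3, of the synaptonemal complex, went from 25.4, 25.6 and 25.9 CPM to 4.05, 2.56 and 1.30 CPM (log2 fold change -3.25 ± 0.24, adjusted p = 6.3e-08) after 41.4 ± 7.59 CPM at 8 h, and untreated organoids held 19.1, 18.5 and 13.1 CPM. Among the DNA methylation enzymes 4 of 8 fell, Dnmt3a, Dnmt3b, Dnmt3l and Tet1, and Tet3 rose. Dnmt1, the maintenance enzyme, was at 649, 654 and 615 CPM at day 2 and 538, 601 and 631 CPM at RA 78 h (log2 fold change -0.12, 95% interval -0.25 to 0.02).

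Few genes of the housekeeping lists passed the thresholds. Of 20 cell cycle genes 1 did, Ccne1, of 83 cytoplasmic ribosomal protein genes 3, of 38 proteasome subunits 1 and of 72 oxidative phosphorylation genes 4, all lower. The ribosomal genes that fell were Rpl10l, Rpl39l and Rpl3l, variants with tissue-specific expression, and the proteasome gene was Psma8, of the testis. Without RA 78 h replicate 2 the calls of Ccne1 and Rpl3l were lost (log2 fold change -0.99 and -1.47), and that of Rpl3l also without day 2 replicate 3 (-1.40). The medians of the 4 lists were -0.35, -0.46, -0.28 and -0.45, below the median of all tested genes, and stayed below it under each scaling tried. The cyclins that drive entry into the cycle were split. Ccnd2 rose from 38.8, 35.5 and 33.9 CPM to 844, 937 and 1038 CPM (log2 fold change 4.70 ± 0.09, adjusted p = 1.5e-12), while Ccnd1 was at 444, 447 and 421 CPM at day 2 and 366, 362 and 355 CPM at RA 78 h (log2 fold change -0.28, 95% interval -0.38 to -0.17).

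The remaining lists held rises and falls, to be read against the shares over all tested genes (22.9% higher and 14.5% lower). Some, such as the Myc family, lay near these shares. Of 13 forebrain and midbrain genes 8 rose and 3 fell (1 without RA 78 h replicate 3, and 4 rises and 1 fall with glmTreat against a 2-fold change), but apart from Otx2 they stayed low, En1, of the midbrain, for example at 0.0414, 0.200 and 0.208 CPM at day 2 and 2.75, 2.12 and 1.44 CPM at RA 78 h. Of 10 posterior axis genes 3 rose and 4 fell. Cdx1, a direct RA target of the tail end, rose to 36.7 ± 3.80 CPM at 18 h and had receded to 2.06, 1.09 and 1.72 CPM at 78 h from 0.580, 0.999 and 0.996 CPM at day 2 (log2 fold change 0.93, 95% interval 0.24 to 1.62). It was called higher without RA 78 h replicate 2 (log2 fold change 1.13). Of 17 basement membrane and integrin genes 6 rose and 2 fell. Lama1, a laminin chain, went from 6.80, 8.39 and 6.73 CPM to 88.9, 102 and 128 CPM (log2 fold change 3.87 ± 0.14, adjusted p = 1.7e-10). Fn1, fibronectin, went from 1045, 1069 and 949.5 CPM to 457, 491 and 432 CPM (log2 fold change -1.15 ± 0.06, adjusted p = 3.4e-09). The groups did not overlap for either gene. Of 10 claudins 3 rose and 3 fell, of 11 cadherins and Epcam 7 rose and 2 fell, and of 8 genes of the Myc family 2 rose and 1 fell. The one that fell was Mycn, from 447, 451 and 509.7 CPM to 128, 117 and 108 CPM (log2 fold change -1.99 ± 0.07, adjusted p = 1.7e-10), with 132, 146 and 141 CPM without RA. Of 10 D cyclins and CDK inhibitors 3 rose, Ccnd2, Cdkn1c and Cdkn2c. Of 21 glycolysis and hypoxia genes 3 rose and 1 fell (0 without RA 78 h replicate 3, and 2 without day 2 replicate 3, RA 78 h replicate 1 or RA 78 h replicate 2), of 19 cholesterol and fatty acid synthesis genes 1 rose, and of 16 stress and p53 response genes 5 rose and 3 fell. Slc2a1, the glucose transporter GLUT1, passed through 2799 ± 98.0 CPM at 30 h and ended at 950.4, 878 and 855 CPM from 414, 418 and 443 CPM (log2 fold change 1.07 ± 0.05, adjusted p = 2.6e-09), with 957, 1119 and 1078 CPM without RA. The 11 genes of LPA synthesis, receptors and phosphatases held 3 rises and 3 falls.

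To follow the genes that changed first, an early gene was defined as one called at RA 8 h or 18 h against day 2 in the fit of 24 libraries. This rule and the classes below span both time and RA, and the early changes were not tested against untreated organoids of 8 h or 18 h. There were 3442, of which 2469 had risen and 973 had fallen. At 78 h a gene was off when it was still called in its early direction against day 2. It was back when it was called in the opposite direction against its early time and the 95% interval of its 78 h change lay between -1 and 1 on the log2 scale, and crossed when it was called on the other side of day 2. Of the risen genes 1757 (71.2%) were off, 100 (4.05%) back, 78 (3.16%) crossed and 534 (21.6%) neither. Of the fallen genes 710 (73.0%) were off, 61 (6.27%) back, 30 (3.08%) crossed and 172 (17.7%) neither. Of those called neither, 249 risen and 43 fallen genes had moved back from their early level by a called amount. Their 78 h interval did not lie wholly between -1 and 1, so they do not count as back. Against all 18670 genes of this fit, those off make up 9.41% and 3.80%, those back 0.536% and 0.327%, those crossed 0.418% and 0.161% and those called neither 2.86% and 0.921%. Without RA 8 h replicate 3 the numbers off were 1810 and 755 and the numbers back 118 and 61.

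Of the genes that stayed off, 561 of 1757 risen and 205 of 710 fallen ones had moved further by 78 h by a called amount. The fitted change from day 2 was larger at 78 h than at the early time in 1336 and 599 of them, in a class chosen for being beyond the threshold at 78 h. Only 70 risen and 5 fallen genes of this class had moved part way back by a called amount, Cyp26a1, Hoxb1 and Stra8 being examples. The median log2 fold change at 78 h was 2.6 for risen and -2.44 for fallen genes of the class, values that the rule itself sets beyond 1. Besides Enpp2, the largest early falls that lasted included Foxd3, a pluripotency and crest factor. It dropped from 70.3, 67.9 and 77.8 CPM to 0.521, 0.742 and 0.870 CPM at 18 h and was at 2.61, 1.26 and 1.23 CPM at 78 h. Zfp703, a zinc finger repressor, was among the largest early rises that lasted, with 1.22 CPM at day 2, 207 ± 14.7 CPM at 18 h and 40.5, 40.6 and 49.9 CPM at 78 h, when untreated organoids held 45.1, 39.8 and 55.0 CPM (RA against untreated, log2 fold change -0.08, 95% interval -0.33 to 0.17).

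Of the early risen genes that came back, Csn3, kappa-casein, had the largest early rise, from 0.953, 0.799 and 0.208 CPM at day 2 to 45.8, 38.6 and 38.7 CPM at 18 h and back to 0.608, 0.512 and 0.840 CPM. Clgn, an endoplasmic reticulum chaperone, went from 12.4, 15.9 and 12.1 CPM to 138, 144 and 143 CPM and back to 13.4, 11.3 and 10.6 CPM (log2 fold change at 78 h in the course fit -0.25, 95% interval -0.61 to 0.11). Srms, a tyrosine kinase gene, went from 1.74, 2.00 and 1.70 CPM to 29.6 ± 3.85 CPM at 8 h and back to 1.80, 1.88 and 1.37 CPM. The other large risen genes of this class were Paqr6, Stk32a, Ccdc88b, Dcaf12l1 and Tent5a. Membership depended on the settings, since Csn3 stayed in the class in 11 of 20 alternatives, Stk32a in 15 of 20 and Tent5a and Tbx3 in 15 of 21. Tbx3, a T-box factor of naive stem cells, stood at 19.8, 19.5 and 19.4 CPM at day 2, 49.2 ± 7.08 CPM at 18 h and 27.7, 24.4 and 22.2 CPM at 78 h, while untreated organoids were at 3.88, 3.24 and 2.79 CPM. At 78 h it lay a little above its start under RA, within 2-fold, and the RA and untreated ends differed (RA against untreated, log2 fold change 2.93 ± 0.13, adjusted p = 2.4e-08).

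Of the early fallen genes that returned, Kdr, the VEGF receptor, went from a mean of 3.50 ± 0.492 CPM (SD, n = 3) to 0.438 ± 0.203 CPM at 18 h and 3.52 ± 0.793 CPM at 78 h. Dll3, a Notch ligand, went from 11.2 ± 1.95 to 3.07 ± 1.71 CPM at 8 h and 15.2 ± 1.87 CPM at 78 h. Wnt5a, a ligand of planar polarity, went from 14.9 ± 0.715 to 6.31 ± 0.377 CPM and 18.3 ± 2.06 CPM, and untreated organoids ended at 3.56, 3.95 and 5.41 CPM (RA against untreated, log2 fold change 2.09 ± 0.15, adjusted p = 7.1e-07). Pitpnm3, Prr5l, Mfap4, Ier5, Sdk1 and Timp3 made up the rest of the largest early falls that were regained. Wnt5a stayed in this class in 12 of 21 alternatives and Sdk1 in 14 of 20.

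The crossed class held 108 genes. Wnt8a, a Wnt ligand of the posterior epiblast, rose from 35.5, 29.2 and 32.0 CPM to 146, 159 and 29.6 CPM at 8 h and then fell below its start, to 5.97, 4.88 and 3.26 CPM at 78 h (log2 fold change -2.77 ± 0.16, adjusted p = 8.2e-09). The last of its 8 h values was that of the library that stood apart. Untreated organoids ended far higher, at 149, 182 and 168 CPM. Wnt3 took the reverse way, from 1.91, 2.298 and 3.65 CPM to 0.521, 0.825 and 0.696 CPM at 18 h and 6.75, 6.55 and 5.95 CPM at 78 h (log2 fold change 1.28 ± 0.21, adjusted p = 1.2e-04). Wnt3 stayed in this class in 18 of 21 alternatives. Its 78 h call was lost with glmTreat against a 2-fold change, and with day 2 replicate 3 only the log2 fold change was 0.79. Id4, Fgf15, Wnt5b, Ebf3 and Cdh4 also crossed upwards, and the germline genes Sycp1 and Taf7l crossed downwards.

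**Figure D4:**
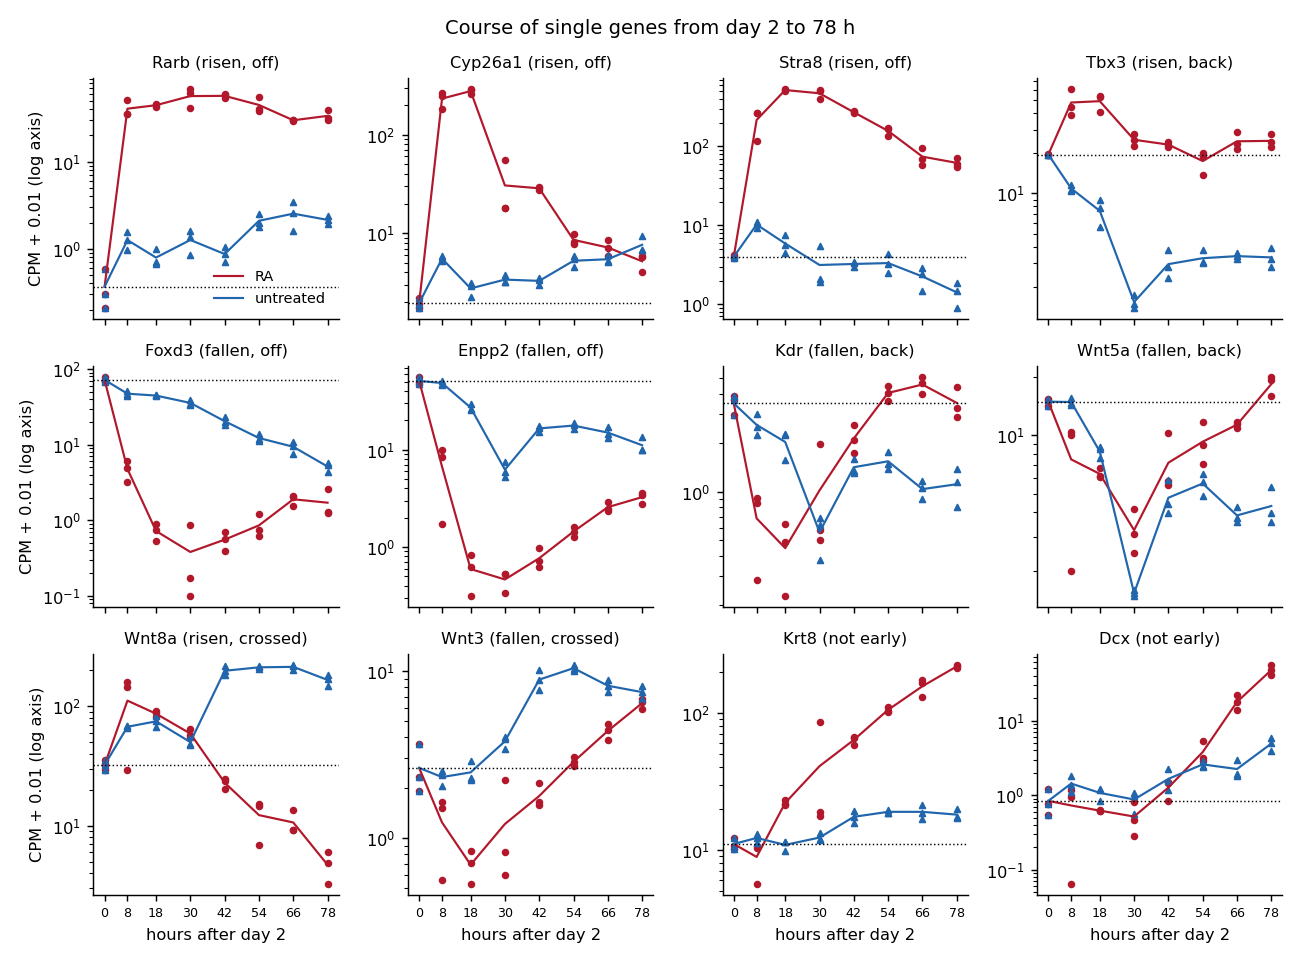
Level of 12 genes in each library from day 2 (0 h) to 78 h with RA (red circles) and without (blue triangles), in CPM + 0.01 on a log axis; lines join the means of 3 libraries and the dotted line is the day 2 mean. Rarb and Foxd3 stay off their start under RA, Cyp26a1 and Stra8 fall from a peak but end above it, Kdr, Wnt5a and Tbx3 come back to within 2-fold of it, Wnt8a and Wnt3 cross it, and Enpp2 stays below it. Krt8 climbs through the course and Dcx rises late.

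Beside the early genes stood those that changed later. Of the genes called at 78 h in the course fit, 1999 higher and 1808 lower ones had been called neither at 8 h nor at 18 h. Dcx is such a late rise, and Rarg and Lin28a are such late falls. Krt8 belongs here by the rule only, since its mean had already risen by 18 h without being called. Lin28a, an RNA-binding protein of early embryonic cells, still stood at 1014 ± 5.93 CPM (SD, n = 3) at 18 h and 751 ± 63.3 CPM at 54 h before it reached 402, 415 and 393 CPM at 78 h from 1025, 1012 and 959 CPM at day 2. Untreated organoids held 955, 1061 and 1092 CPM at that time (RA against untreated, log2 fold change -1.35 ± 0.06, adjusted p = 1.1e-08).

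The same 78 h without RA gave changes of similar number, 3392 genes higher (20.3% of 16681 tested) and 2272 lower (13.6%) than at day 2, together 34.0%. This count shares the day 2 libraries with the RA comparison, so the test of whether the change differed is RA 78 h against untreated 78 h, in which 1307 of 17059 genes (7.66%) were higher and 688 (4.03%) lower with RA. In 28 genes the change from day 2 was called up with RA and down without, and in 8 genes the reverse. The largest of the first kind were Stra8, Serpinb9b, Epn3, Msx1 and Plet1, and of the second kind Wnt8a, Hapln4, Fam163b and Igsf1. Serpinb9b, a serine protease inhibitor gene of a family with near-identical members, held 5.47, 6.05 and 4.03 CPM at day 2, 33.3, 33.6 and 39.3 CPM with RA and 1.47, 1.78 and 1.14 CPM without. Plet1, of placental and epithelial cells, held 2.11, 1.85 and 2.74 CPM at day 2, 16.9, 15.6 and 14.6 CPM with RA and 1.29, 0.803 and 0.502 CPM without. Hapln4, a matrix link protein gene, held 3.52, 3.50 and 4.11 CPM at day 2, 1.39, 1.67 and 1.40 CPM with RA and 11.9, 11.2 and 10.5 CPM without. In each of these the day 2 libraries lay between those of the 2 other groups, an order that the choice of these genes largely sets.

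**Figure D5:**
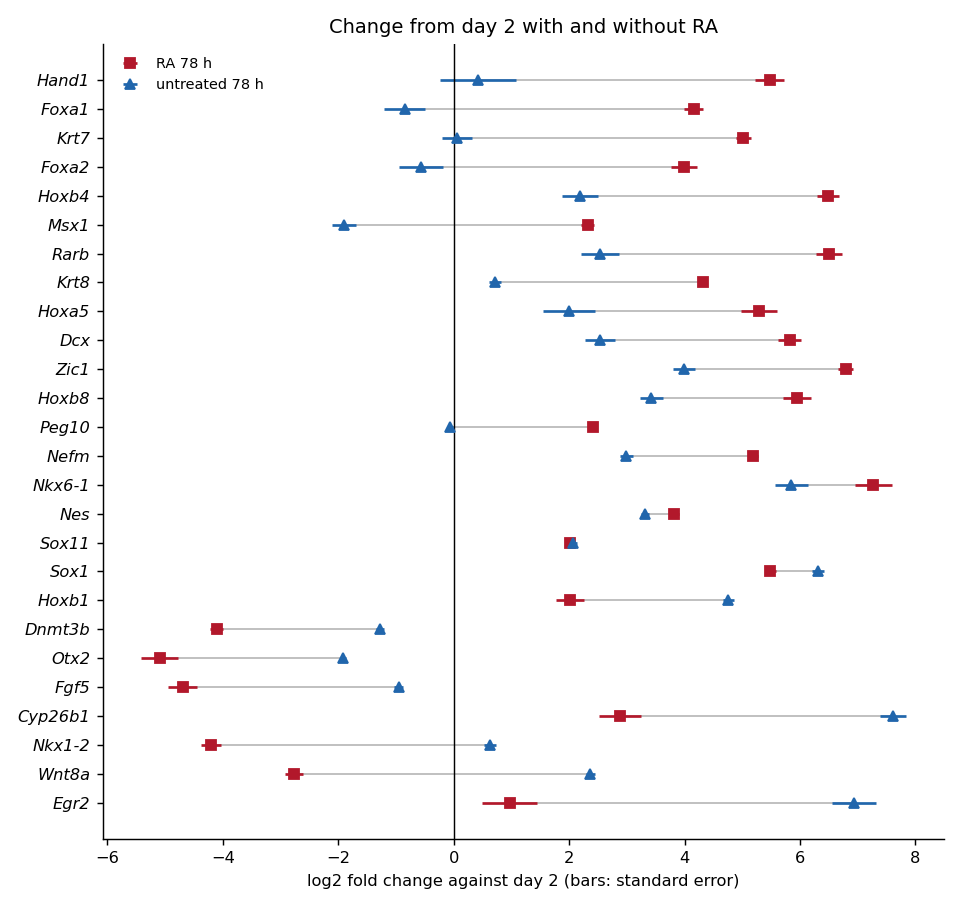
Log2 fold change against day 2 of 26 genes at RA 78 h (red squares) and untreated 78 h (blue triangles), with standard errors; each pair is joined by a line and genes are ordered by the difference. Foxa1, Krt7, Hand1 and Msx1 lie far to the right with RA alone, Nes and Sox11 lie close together, and Egr2, Cyp26b1 and Wnt8a lie further right without RA.

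For other genes the courses with and without RA ended close together, Nes with a log2 fold change of 3.81 ± 0.09 with RA and 3.31 ± 0.07 without, and Sox11 with 2.01 ± 0.06 and 2.07 ± 0.06. The 95% interval of the difference between RA and untreated was 0.34 to 0.70 for Nes and -0.17 to 0.08 for Sox11 on the log2 scale. The posterior gene Nkx1-2, of axial progenitors, fell with RA, from 16.4, 15.2 and 14.5 CPM to 1.01, 0.853 and 0.595 CPM, and held 19.2, 27.1 and 24.6 CPM without RA (RA against untreated, log2 fold change -4.81 ± 0.18, adjusted p = 4.6e-09).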

How the data were processed

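RNA of R1 organoids was sequenced as single-end reads of 75 bp. Per the labels and the study's methods, the reads were trimmed by the authors (Trim Galore 0.5.0), filtered with Bowtie2 2.3.4.1, aligned to the mouse genome GRCm38 with STAR and counted per gene with featureCounts of Subread 1.6.2. The deposited table holds these raw counts, with 17298632 to 39688686 per library, and was used as it stands. Its depth limits low genes: a level of 3 counts per library was taken as the floor for a gene without reads.

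The main comparison was fitted on its own 6 libraries in R 4.3.3 with edgeR 4.0.16 (TMM scaling, filterByExpr with a minimum count of 10 and a minimum total of 15, quasi-likelihood test, Benjamini-Hochberg adjustment over all tested genes), and the RA course in 1 fit of 24 libraries. Genes were called with a log2 fold change beyond 1 in either direction where the adjusted p lay under 0.01. Values after ± are standard errors for log2 fold changes and SDs of 3 libraries for CPM. Groups follow the sample labels. DESeq2 1.42.0, other scalings, filters, thresholds and fits, and leaving out each library were alternatives. The gene lists and the comparison itself were chosen with earlier results of these data known. The text names list members, the 10 largest rises and falls (protein-coding, mean of at least 1 CPM, no overlap), the 8 largest early changes of each class, genes called in opposite directions with and without RA, and Enpp2, Rock1 and Rock2. Some genes that these rules select are not reported here. Of 821 listed genes, 59 had too few reads to be tested. The script was tested on simulated counts with 200 changed genes.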

Additional observations from a re-analysis of the deposited data

Results flagged for a closer look

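The change from day 2 differed with and without RA, as tested by RA 78 h against untreated 78 h (edgeR quasi-likelihood test), in 1307 genes that were higher and 688 that were lower with RA. In 28 genes the change was called up with RA and down without it, and in 8 genes down with RA and up without. Of the first kind, the log2 fold change of RA 78 h against untreated 78 h was 5.50 for Stra8, 4.68 for Epn3, 4.61 for Serpinb9b, 4.24 for Msx1 and 4.23 for Plet1, each higher in 3 of 3 RA libraries than in any untreated library. Of the second kind it was -5.11 for Wnt8a, -2.90 for Hapln4, -2.69 for Fam163b and -2.31 for Igsf1, each lower in 3 of 3 RA libraries. The genes of both kinds were chosen for opposite calls against day 2, so this separation of libraries is largely set by the choice. With the stricter test against a log2 fold change of 1, the falls from day 2 of Hapln4, Fam163b and Igsf1 with RA were no longer called.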

How the results depend on the processing

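The counts of genes rested most on the thresholds. Dropping the fold limit and taking adjusted p values below 0.05, 6896 genes were higher and 6299 lower at RA 78 h than at day 2, 4337 and 3674 at RA 78 h than at untreated 78 h, and 6679 and 6200 at untreated 78 h than at day 2. Under glmTreat (tested against a 2-fold change), 664 were higher and 233 lower at RA 78 h than at untreated 78 h. With at least 10 counts in every library, which tests fewer genes, 2568 genes were higher at RA 78 h than at day 2 and 1513 early genes were off. Early genes defined at 8 h only gave 816 off and 85 back, since fewer genes were early. Leaving out each library in turn gave 3745 to 3847 higher and 2416 to 2528 lower genes at RA 78 h than at day 2, 2256 to 2565 early genes off and 132 to 179 back. Scaling by library totals shifted the median over all genes (log2 scale) from 0.04 to 0.20.

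Replicate numbers share no stated origin. The deviations of same-numbered day 2 and RA 78 h libraries correlated at -0.02, 0.057 and 0.021, and those of libraries with unlike numbers at -0.074 to 0.033. No pairing was seen or used, but so weak a check cannot show whether libraries of 1 number were prepared together. With the replicate number as a block, 3741 genes were higher and 2334 lower at RA 78 h than at day 2, 2447 early genes were off and 162 back.

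Of 1977 values of named genes at RA 78 h against day 2 under the alternatives other than leaving out 1 library, 1902 kept direction and call, 30 lost and 23 gained a call, and 22 changed sign, all of them of genes not called. The log2 fold changes that changed sign were Aldh1a2 -0.050, Prr5l -0.022, Rock1 -0.18, Rock2 -0.10 and Stk32a -0.26 with day 2 replicate 3 only. With library totals they were Ccdc88b 0.11, Dnmt1 0.046, Gli1 0.12 and Srms 0.058, and with RLE size factors Csn3 -0.012, Kdr -0.013 and Pitpnm3 -0.0012. In the fit of all 45 libraries they were Csn3 -0.020, Kdr -0.019 and Pitpnm3 -0.0072, in that of 24 libraries Csn3 -0.048, Kdr -0.047, Paqr6 -0.014, Pitpnm3 -0.034 and Rock2 -0.016, and with the replicate block Kdr -0.0078 and Pitpnm3 -0.0023. With 1 library left out, the ranges that spanned 0 were Aldh1a2 -0.0082 to 0.16, Ccdc88b -0.21 to 0.081, Csn3 -0.45 to 0.41, Gli1 -0.12 to 0.032, Kdr -0.19 to 0.16, Paqr6 -0.18 to 0.41, Pitpnm3 -0.21 to 0.27, Rock1 -0.11 to 0.20, Rock2 -0.037 to 0.089 and Srms -0.20 to 0.0094. For RA 78 h against untreated 78 h they were Hoxb9 -0.19 to 0.31 and Zfp703 -0.20 to 0.034. The fits without RA 8 h replicate 3 and without RA 30 h replicate 2 were chosen after seeing the data. What made a value move beyond the settings' own construction was not tested.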
